A study of Rattus norvegicus with 9 samples.

Results

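Eif2ak3, Ern1, Atf6, Atf6b, Xbp1 and Eif2s1 encode the sensors and first transducers of the unfolded protein response (UPR), and their expression was followed in INS-1E cells, an insulin-secreting rat insulinoma line. The genes were taken by name, 6 of the 20645 genes in the table, and all 6 passed the expression filter that 12958 genes passed (a mean over the 9 libraries of at least 1 FPKM, a fragment count scaled to transcript length and sequencing depth). Cells were given fatty acid-free BSA (the BSA group), palmitic acid (PA) at 0.5 mM, or PA at 0.5 mM together with cyanidin-3-O-glucoside (C3G), an anthocyanin, at 50 µM. Each of the 3 groups had 3 replicates, exposure lasted 24 h, and polyadenylated RNA was sequenced. The doses come from the methods of the study, and the labels name the agents and the time. No group received C3G without PA, so the data hold no effect of C3G on its own. The methods state in general that experiments had at least biological triplicates, and nothing in the labels says that these replicates were separate cultures. The p-values therefore measure the spread between these samples, which may be technical.

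The UPR is the response of a cell to unfolded protein in the lumen of the endoplasmic reticulum (ER), and it matters to beta cells because they fold large amounts of proinsulin there. PERK (Eif2ak3), IRE1 (Ern1) and ATF6 (Atf6) span the ER membrane and are held inactive by the chaperone BiP. Active PERK phosphorylates eIF2α (Eif2s1), which slows translation in general. Active IRE1 cuts the Xbp1 mRNA so that, after ligation, it encodes the transcription factor XBP1s. ATF6 and its relative ATF6B (Atf6b) are cut by proteases in the Golgi, and the released fragments act in the nucleus. These steps are phosphorylation, RNA cutting and proteolysis, so the mRNA levels below measure how much of each transcript was present and not how active its product was. The gene-level values also do not separate spliced from unspliced Xbp1 mRNA.

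ATF6 is known to act through the ER stress response element (ERSE), in which a CCAAT box and CCACG stand 9 bases apart, written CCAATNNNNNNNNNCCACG. RefSeq promoters of build GRCr8, from 250 bases before to 50 after the start of a gene, were found for 4 of the 6 genes, namely Eif2ak3, Atf6b, Xbp1 and Eif2s1. On either strand, an ERSE was present in 21 of 27457 rat promoters (0.0765%), and among the 4 genes in the promoter of Xbp1. It is shown because Xbp1 is both a transducer and a known target of the pathway. The Xbp1 promoter lies at chr14:84604373-84604672 on the plus strand, the capitals mark the ERSE, and the element occupies positions −65 to −47 counted from the start base as 0:
Xbp1: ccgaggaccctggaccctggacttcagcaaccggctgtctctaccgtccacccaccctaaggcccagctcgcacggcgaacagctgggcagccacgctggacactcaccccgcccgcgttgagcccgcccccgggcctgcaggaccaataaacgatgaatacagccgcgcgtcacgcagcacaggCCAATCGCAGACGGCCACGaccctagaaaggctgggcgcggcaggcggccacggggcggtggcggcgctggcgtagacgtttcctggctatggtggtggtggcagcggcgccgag

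The Eif2ak3 promoter, at chr4:104363622-104363921 on the plus strand, held no ERSE but 5 CCAAT boxes, which are in capitals and of which those written ATTGG lie on the other strand. It is shown because Eif2ak3 had the largest log2 fold change of the 6 genes with PA:
Eif2ak3: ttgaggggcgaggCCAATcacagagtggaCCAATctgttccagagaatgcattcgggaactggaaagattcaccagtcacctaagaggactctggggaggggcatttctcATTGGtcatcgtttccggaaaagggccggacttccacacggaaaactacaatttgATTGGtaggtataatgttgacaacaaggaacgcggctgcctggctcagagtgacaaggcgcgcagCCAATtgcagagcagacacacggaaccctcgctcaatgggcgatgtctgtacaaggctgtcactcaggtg

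At least 1 CCAAT box, a common promoter motif that is also part of the ERSE, was present in all 4 promoters and in 37.7% of all promoters. Matches to ERSE-II (ATTGG, any 1 base, then CCACG, in 0.0546% of promoters), TGACGTGG (a motif bound by ATF6 and XBP1, in 0.637%) and TGATGNAA (a motif bound by ATF4 with C/EBP proteins, in 3.82%) were searched on both strands and were found in none of the 4. Among the 9 promoters matched for a list of 10 known ATF6 targets, 4 held an ERSE, those of Calr, Creld2, Hsp90b1 and Hspa5, and Dnajc3 of the XBP1s target list held one too. The list is made of known targets, so this share is not independent of the motif. The elements are set below that of Xbp1 in the direction of the motif, with the CCAAT box and CCACG in capitals, to show which bases they share:
Xbp1: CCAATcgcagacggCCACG
Calr: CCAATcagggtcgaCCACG
Creld2: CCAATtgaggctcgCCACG
Dnajc3: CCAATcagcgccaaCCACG
Hsp90b1, first: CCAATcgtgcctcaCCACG
Hsp90b1, second: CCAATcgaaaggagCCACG
Hspa5: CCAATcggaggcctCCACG

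The libraries held between 45559993 and 66730721 estimated counts. Low counts pile up at multiples of 4 (4 counts were 2.44 times as frequent as the mean of 3 and 5), so 1 fragment was taken as about 4 counts. The 6 genes had between 2075 and 19950 counts per library, which on that scale gives a counting error between 4.39% and 1.42%. Across genes, which are not independent replicates, log2 normalized counts of libraries of one group had a Pearson's r of 0.985 to 0.989, and those of libraries from different groups 0.955 to 0.983. The 8 beta cell markers were all past the filter, but their summed level was lower with PA, at 22086 to 22600 FPKM against 48911 to 49627 with BSA and 46476 to 52089 with PA + C3G. The sum hides differences between markers. With PA + C3G, Ins2 was at 0.51 and Slc2a2 at 0.34 of the BSA mean, and Nkx6-1 at 1.52. By the edgeR test used below, 3 of the 8 were higher than with BSA and 2 lower, against 19.0% and 17.9% of all tested genes. Of 10 markers of other pancreatic, stromal or blood cells, 6 were in the table and 1, Gcg, passed the filter. Their summed level was 8.37 to 31.2 FPKM with BSA, 1.53 to 6.22 with PA and 4.20 to 22.5 with PA + C3G, and the other 5 had group means of at most 0.109 FPKM. In bulk RNA, fewer cells of a type and less RNA per cell cannot be told apart, and the part of these shifts in the results below was not tested.

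The first question was what PA did to the 6 genes. The 3 ER membrane sensors Eif2ak3, Ern1 and Atf6 rose more than 2-fold, Atf6b and Xbp1 rose about 1.5-fold, and Eif2s1 fell. By edgeR's quasi-likelihood test with Benjamini-Hochberg adjustment over all tested genes, 5 of the 6 genes were higher at an adjusted p under 0.05, a result 25.8% of all tested genes gave, and 1 was lower, as were 25.2% of all tested genes. The median log2 fold change was 0.91 over the 6 genes and 0.00 over all tested genes. The normalized counts of the PA and BSA libraries did not overlap for any of the 6, and did not overlap for 60.1% of all tested genes.

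The second question was what C3G did in the presence of PA. The same 3 sensors fell about 1.5-fold and Atf6b fell less, whereas Xbp1 was higher in each PA + C3G library than in any PA library, short of the threshold, and Eif2s1 overlapped between the groups. In PA + C3G versus PA, 4 of the 6 genes were lower at an adjusted p under 0.05 by the same edgeR test, against 10.2% of all tested genes, and none was higher, against 11.1%. At an unadjusted p under 0.05, Xbp1 was also called, with a higher level. The share of all tested genes past that looser threshold was not computed, so this call cannot be set against it. The counts of the 2 groups did not overlap for 5 of the 6 genes, and for 38.7% of all tested genes. Scaling each library to an equal FPKM sum (TPM scaling) changed the balance over all tested genes from 1436 higher and 1316 lower to 774 higher and 2554 lower, and the 4 genes were lower under it too.

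Compared with BSA, the PA + C3G group was still higher for 5 of the 6 genes (19.0% of all tested genes were higher) and lower for Eif2s1 (17.9% were lower). The groups did not overlap for any of the 6, and for 49.4% of all tested genes. The 3 comparisons share libraries, so their values are not independent of each other.

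**Figure D1:**
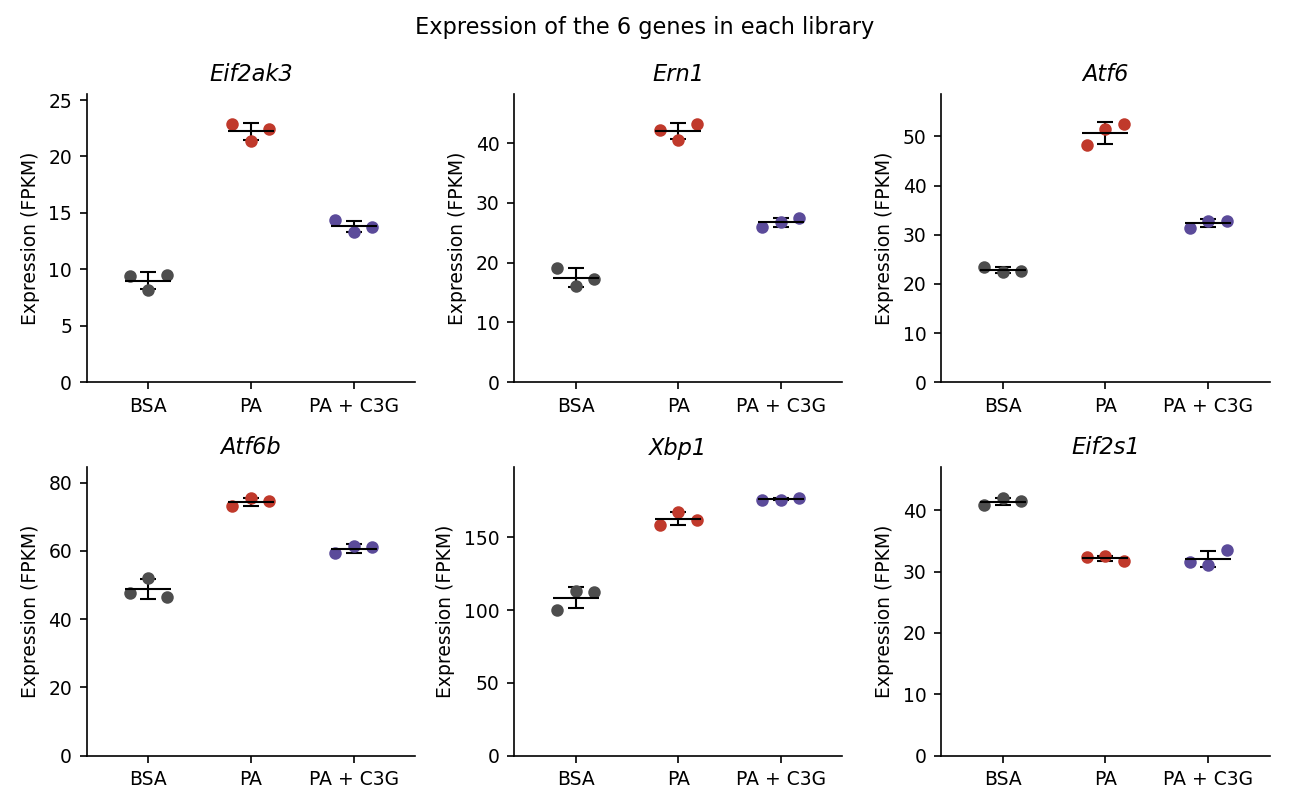
Expression in FPKM (vertical axis, from 0) of each of the 6 genes in the 9 libraries. Points are libraries, in replicate order within a group, and the bars give the mean and SD of 3. Eif2ak3, Ern1, Atf6 and Atf6b peak with PA, Xbp1 is highest with PA + C3G, and Eif2s1 is highest with BSA.

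PERK, the product of Eif2ak3 (ENSRNOG00000006069), is the eIF2α kinase of the ER. The file places the gene on chromosome 4 from 98648545 to 98709694, plus strand, in a build that is not given in the sources used here. The expression of Eif2ak3 was 9.37, 8.16 and 9.47 FPKM in the BSA libraries, 22.8, 21.4 and 22.4 FPKM in the PA libraries, and 14.4, 13.3 and 13.7 FPKM in the PA + C3G libraries. The 3 groups stood apart with no overlap, PA highest and BSA lowest. With PA, Eif2ak3 rose 2.51-fold (log2 fold change 1.33 ± 0.06, SE, adjusted p = 1.85e-07 by edgeR), and its change exceeded in size that of 95.2% of the tested genes. With C3G it fell 1.57-fold relative to PA (log2 fold change −0.65 ± 0.06, SE, adjusted p = 0.000214 by edgeR). It was then 1.60-fold above BSA (adjusted p = 2.39e-05 by edgeR). Of its rise with PA, 36.3% was present with C3G in FPKM and 51.1% on the log2 scale of the fit.

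IRE1α, the product of Ern1 (ENSRNOG00000012864), is a kinase and an RNase in one protein. Its gene spans positions 94588555 to 94681914 of chromosome 10, minus strand. Ern1 was at 19.2, 16.1 and 17.2 FPKM with BSA, at 42.3, 40.5 and 43.1 FPKM with PA, and at 26.0, 26.8 and 27.4 FPKM with PA + C3G. Again no libraries of different groups overlapped. The rise with PA was 2.44-fold (log2 fold change 1.29 ± 0.06, SE, adjusted p = 1.75e-07 by edgeR). The fall with C3G was 1.53-fold (−0.61 ± 0.06, SE, adjusted p = 0.000230 by edgeR), which left Ern1 1.59-fold above BSA (adjusted p = 1.90e-05 by edgeR). In place were 37.7% of its rise in FPKM and 52.2% on the log2 scale.

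ATF6α, the product of Atf6 (ENSRNOG00000024632), is the sensor that becomes a transcription factor on cleavage. Its gene runs from 89055983 to 89242443 on chromosome 13, minus strand. Atf6 was at 23.5, 22.3 and 22.6 FPKM with BSA, at 48.3, 51.4 and 52.5 FPKM with PA, and at 31.4, 32.7 and 32.9 FPKM with PA + C3G. The spread within the groups was small against the gaps between them. Atf6 rose 2.26-fold with PA (log2 fold change 1.18 ± 0.04, SE, adjusted p = 4.72e-08 by edgeR) and fell 1.53-fold with C3G (−0.61 ± 0.04, SE, adjusted p = 4.06e-05 by edgeR). By p-value its fall took rank 21 among the 12958 tested genes, ahead of Eif2ak3 at rank 80 and Ern1 at rank 86. Relative to BSA it was 1.48-fold higher with PA + C3G (adjusted p = 6.29e-06 by edgeR). Present were 34.0% of its rise in FPKM and 47.9% on the log2 scale.

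Atf6b (ENSRNOG00000000431), which encodes ATF6β, a related membrane-bound factor, is on chromosome 20 from 4414276 to 4422283, plus strand, and the file lists 6 transcripts, some with a retained intron. A second gene model, LOC103689965, covers the same 8008 bases on the minus strand with a mean of 0.419 FPKM. The RefSeq promoter of Atf6b in GRCr8 is on the minus strand, so the 2 sources differ on the strand of this gene, and the reason was not tested. The library protocol keeps strand, and whether the counting used it is not given in the sources used here. Atf6b was at 47.8, 52.0 and 46.4 FPKM with BSA, at 73.1, 75.5 and 74.5 FPKM with PA, and at 59.2, 61.5 and 61.1 FPKM with PA + C3G. The order of the groups was that of the 3 sensors, with smaller gaps. Its rise was 1.55-fold (log2 fold change 0.63 ± 0.05, SE, adjusted p = 2.68e-06 by edgeR) and its fall with C3G was 1.20-fold (−0.26 ± 0.05, SE, adjusted p = 0.00424 by edgeR). With PA + C3G it was above BSA by a log2 fold change of 0.38 (adjusted p = 0.00015 by edgeR).

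Xbp1 (ENSRNOG00000010298), the substrate of IRE1, lies on chromosome 14 from 85753760 to 85758145, plus strand, in the build of the file. The level of Xbp1 was 100.1, 113.0 and 112.2 FPKM with BSA, 158.6, 167.7 and 162.3 FPKM with PA, and 176.0, 175.5 and 177.1 FPKM with PA + C3G. Its PA + C3G libraries were thus above the PA libraries, opposite to the order seen for the sensors. The rise with PA was 1.53-fold (log2 fold change 0.61 ± 0.05, SE, adjusted p = 6.66e-06 by edgeR). From PA to PA + C3G the log2 fold change was 0.15 ± 0.05 (SE, 95% interval 0.04 to 0.26), with an unadjusted p of 0.0141 and an adjusted p of 0.0611 by edgeR, short of the threshold. The adjusted p passed it by DESeq2 (0.0309), with the compared groups alone in the fit (0.0310), with a replicate block (0.0397) and without BSA replicate 1 (0.0227). Under TPM scaling the log2 fold change was 0.06. Against BSA, Xbp1 was 1.70-fold higher in the PA + C3G group (log2 fold change 0.76 ± 0.05, SE, adjusted p = 3.19e-06 by edgeR), the largest of the 6 differences in that comparison.

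Eif2s1 (ENSRNOG00000009432) encodes eIF2α, the subunit that PERK and the other eIF2α kinases phosphorylate, and is on chromosome 6 from 102048372 to 102073041, plus strand. It was the member that fell. Its level was 40.8, 42.0 and 41.4 FPKM with BSA, 32.3, 32.5 and 31.7 FPKM with PA, and 31.6, 31.2 and 33.6 FPKM with PA + C3G. The BSA libraries were above the other 6, which overlapped each other. Eif2s1 fell 1.27-fold with PA (log2 fold change −0.34 ± 0.04, SE, adjusted p = 9.66e-05 by edgeR) and was 1.24-fold below BSA with PA + C3G (adjusted p = 0.000334 by edgeR). Between PA + C3G and PA the log2 fold change was 0.03 ± 0.04 (SE, 95% interval −0.06 to 0.13, adjusted p = 0.627 by edgeR), and its sign turned with the scaling.

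**Figure D2:**
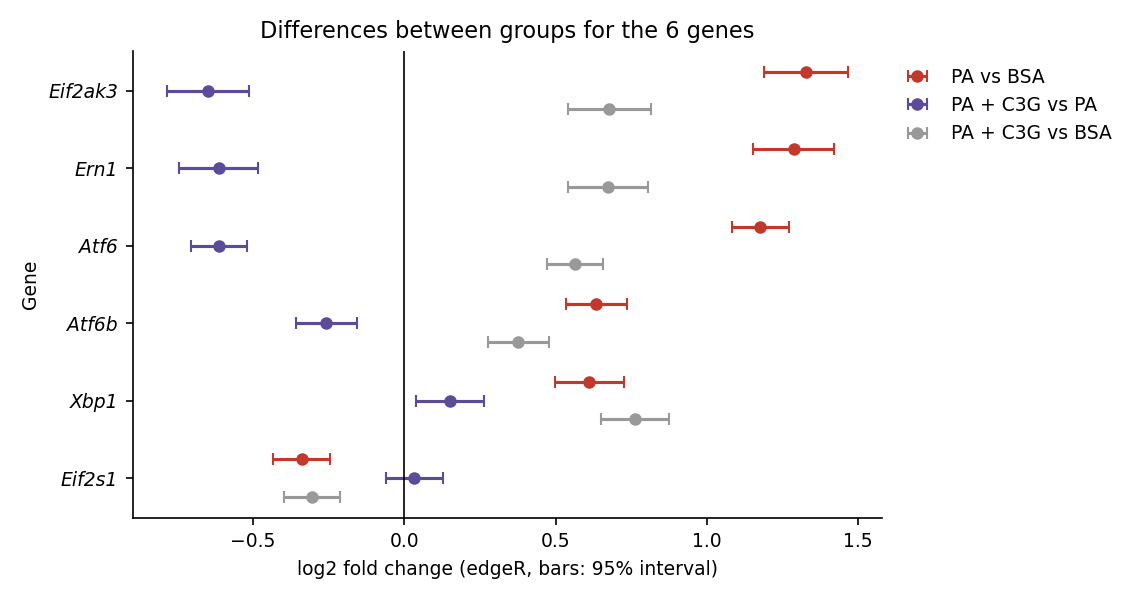
Log2 fold changes from edgeR (horizontal axis) for the 6 genes in the 3 comparisons, with 95% intervals. Eif2ak3, Ern1 and Atf6 lie close together in each comparison, Atf6b moves the same way by less, Xbp1 lies above 0 in all 3, and the interval of Eif2s1 spans 0 in PA + C3G versus PA.

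FPKM are scaled to gene length, so levels can also be set side by side between genes. In each group Xbp1 had the highest level, Atf6b the second and Eif2ak3 the lowest, and with BSA the first 2 were at 108 ± 7.22 and 48.7 ± 2.91 FPKM (SD, n = 3). What changed was the middle of the order. With BSA it ran from Eif2s1 (41.4 ± 0.601 FPKM) to Atf6 (22.8 ± 0.608) and Ern1 (17.5 ± 1.56), and with PA from Atf6 (50.7 ± 2.17) to Ern1 (42.0 ± 1.34) and Eif2s1 (32.2 ± 0.422). Every gene was above the next one in all libraries of these 2 groups. With PA + C3G, Atf6 (31.4 to 32.9 FPKM) and Eif2s1 (31.2 to 33.6 FPKM) overlapped, and Ern1 (26.7 ± 0.716 FPKM) was below both.

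A ratio of 2 genes within a library does not depend on how libraries are scaled, and 3 such ratios of level were compared: a kinase to its substrate (Eif2ak3 to Eif2s1), an RNase to its substrate (Ern1 to Xbp1), and the 2 relatives (Atf6 to Atf6b). With 3 libraries against 3, the exact two-sided permutation test cannot give a p below 0.1. The FPKM of Eif2ak3 was 0.230, 0.194 and 0.229 of that of Eif2s1 with BSA, 0.706, 0.658 and 0.707 with PA, and 0.455, 0.428 and 0.409 with PA + C3G. This ratio rose 3.18-fold with PA and fell 1.61-fold with C3G, with no overlap of groups (exact permutation p = 0.1 for each, 0.113 adjusted over 9 tests).

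Ern1 relative to Xbp1 was at 0.192, 0.142 and 0.154 with BSA, at 0.267, 0.242 and 0.266 with PA, and at 0.148, 0.153 and 0.155 with PA + C3G. PA raised it 1.60-fold and C3G lowered it 1.70-fold, again with no overlap (exact permutation p = 0.1 for each). Here the PA + C3G and BSA libraries overlapped (log2 difference −0.09 ± 0.13, SE, exact permutation p = 0.8), although both genes were higher than with BSA. Without BSA replicate 1 that difference was 0.04.

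For Atf6 relative to Atf6b, the ratio was 0.492, 0.430 and 0.488 with BSA, 0.661, 0.681 and 0.704 with PA, and 0.530, 0.532 and 0.537 with PA + C3G. It rose 1.45-fold with PA and fell 1.28-fold with C3G (exact permutation p = 0.1 for each), with no overlap of groups. The log2 difference between PA + C3G and BSA was 0.18, and 0.12 without BSA replicate 2.

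**Figure D3:**
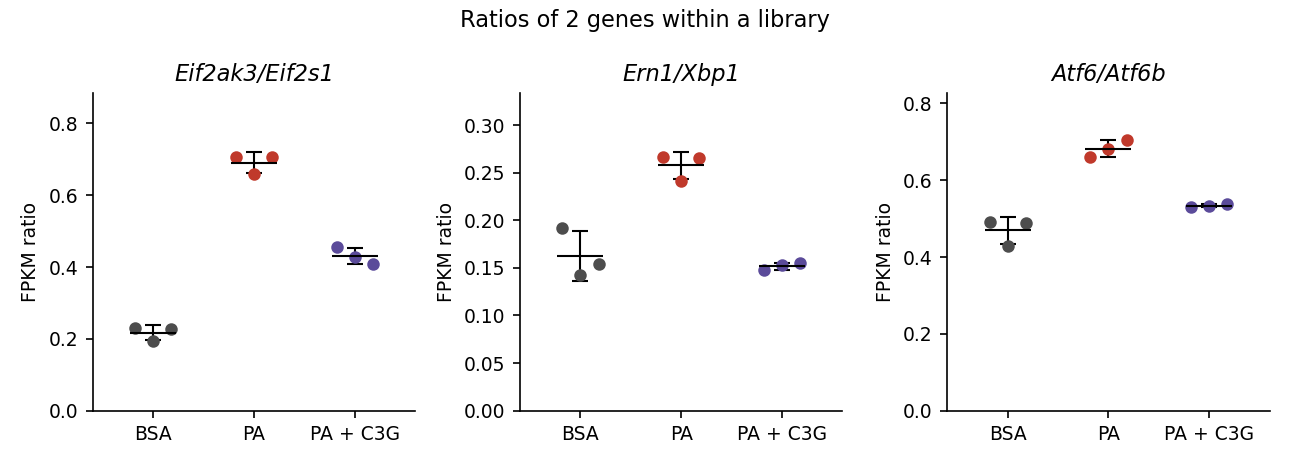
FPKM of the first gene divided by FPKM of the second in the same library (vertical axis, from 0), by group, with points for libraries and bars for the mean and SD of 3. The 3 ratios are highest with PA, and for Ern1 to Xbp1 the BSA and PA + C3G libraries overlap.

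To show which transcripts followed the same course, the profile of each gene over the 9 libraries (log2 normalized counts, centred on their mean) was set against those of the tested genes outside the 6 by the root mean square difference, in log2 units. The closest profile to Eif2ak3 was that of Ddit3, which encodes the transcription factor CHOP, at 0.0447, against a median of 0.556 over the genes, and Ern1 was 0.0593 from Eif2ak3. Olfm2 (0.0727) and LOC100360087 (0.0741) came next. Engase, which removes glycans from misfolded glycoproteins, and Tanc1 were nearest both to Ern1 (0.0679 and 0.0737) and to Atf6 (0.0615 and 0.0644), followed by AC128792 for Ern1 (0.0769) and Arfgef3 for Atf6 (0.0691).

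The nearest genes to Atf6b were Idh2 (0.0346), Sec31a (0.0354), a coat component of vesicles leaving the ER, and Gid4 (0.0394). Xbp1 had other neighbours, Scarb1 (0.0501), Ctsb (0.0560) and Scg3 (0.0614), a granule protein. From PA to PA + C3G their log2 fold changes were 0.14, 0.09 and 0.18, and that of Scg3 passed the threshold (adjusted p = 0.0198 by edgeR). Nearest to Eif2s1 were Smpd4 (0.0277), Tra2b (0.0316) and Ahcyl1 (0.0339), whose log2 fold changes with PA lay between −0.36 and −0.29. All these neighbours were chosen by their profiles over the same libraries, so fold changes like those of the members follow from the choice. The p-value of Scg3 is therefore no independent test. Between members, Ern1 and Atf6 differed by 0.0774 and Eif2ak3 and Atf6 by 0.0974, whereas Xbp1 differed from the 3 sensors by 0.329 to 0.367.

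Proteins that hold, cut or restrain the sensors were looked at next, in a list of 20 partners and regulators of which 19 were tested. With PA 13 were higher, against 25.8% of all tested genes, and none was lower, against 25.2%. The other 6 did not pass the test, and the median log2 fold change was 0.54. The lower genes numbered 1 in place of 0 without BSA replicate 3 or PA + C3G replicate 2, with the replicate block, by limma and with a filter at 5 FPKM. Hspa5, which encodes BiP, had a log2 fold change of 1.73 ± 0.06 (SE), and Dnajb9, which brings BiP to IRE1, one of 2.05. Wfs1, which restrains ATF6, rose by 1.57, and Tmbim6, an inhibitor of IRE1, by 0.86. Mbtps1 and Mbtps2, the proteases that cleave ATF6, were at 0.05 and 0.10, and Rtcb, the ligase that joins the cut Xbp1 mRNA, at 0.02, none past the threshold.

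With C3G the median was −0.10. Lower than with PA were 5 of the 19, against 10.2% of all tested genes, and none was higher, against 11.1%. Among the 5 were Hspa5 (log2 fold change −0.47), Dnajb9 (−0.47), Wfs1 (−0.52) and Tmbim6 (−0.18). TPM scaling gave 9 lower, and under it 2554 of all 12958 tested genes were lower in place of 1316. Leaving out PA replicate 3 gave 3, and lowered the called genes among all tested from 2752 to 1718. Dnajc3, whose product inhibits PERK, was at −0.09 and not past the threshold. Relative to BSA, 11 of the 19 remained higher in the PA + C3G group, against 19.0% of all tested genes. Hspa5 was higher by 1.27 and Dnajb9 by 1.59 on the log2 scale.

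Of 6 further factors listed as related to ATF6, not all of them membrane-bound, 4 were tested. Creb3l2 rose by 1.69 with PA and fell by 0.43 with C3G on the log2 scale, Creb3l1 rose by 0.64 and Creb3 by 0.36, and Crebzf was at −0.04 and not past the threshold. Neither Creb3l1 nor Creb3 (−0.05) passed the test with C3G.

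Lists of known targets of the 3 branches were looked at next. Their mRNA does not measure how active a branch was, and a gene can be on more than 1 list. Of the 10 ATF6 targets, 10 were higher with PA (median log2 fold change 1.39) and 8 were lower with C3G than with PA (median −0.35). With 1 library left out, the 8 ran from 6 (without PA replicate 1) to 9 (without BSA replicate 2), and TPM scaling gave 9. In the PA + C3G group 10 were still above BSA (median 0.96). The shares of all tested genes were 25.8% higher with PA, 10.2% lower with C3G and 19.0% above BSA with PA + C3G. Creld2 had rises and falls of 1.52 and −0.72, Manf of 1.64 and −0.51, Herpud1 of 1.09 and −0.34, and Sel1l of 1.23 and −0.34. The exceptions with C3G were Calr, at −0.01, and Pdia4, at −0.23 with an adjusted p of 0.0813 by edgeR. Calr and Hspa5 both carry an ERSE in the window shown above.

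Among the 14 XBP1s targets, 13 were tested, and they share Dnajb9, Dnajc3 and Pdia5 with the partner list. With PA 12 were higher, against 25.8% of all tested genes, and none was lower, against 25.2% (median 0.72). By the same edgeR test Sec24d (−0.09) did not pass, and by limma and with the replicate block 1 gene was lower. C3G lowered 6 and raised none (median −0.16), against 10.2% lower and 11.1% higher of all tested genes. Serp1 (1.35 and −0.29), Sec61a1 (1.05 and −0.19) and Dnajb9 changed in both comparisons, and Edem1, an ERAD factor, rose by 0.38 and fell by 0.48, ending at −0.11 relative to BSA (adjusted p = 0.261 by edgeR). Without PA replicate 2, or without PA + C3G replicate 2 or 3, the 6 became 4. The Xbp1 mRNA itself was not lower with C3G.

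For RNA cut by IRE1 outside Xbp1, 2 of 7 listed substrates passed the filter. Bloc1s1, the best known of them, was at 57.7 ± 2.45 FPKM with BSA, 49.6 ± 2.92 with PA and 55.2 ± 3.55 with PA + C3G (SD, n = 3). Its log2 fold change with PA was −0.19 (adjusted p = 0.0444 by edgeR), past the threshold by little and lost in 9 of 19 alternatives (among them leaving out BSA replicate 1 or 2, PA replicate 1 or 2, or PA + C3G replicate 2), and with C3G 0.19 (adjusted p = 0.0853 by edgeR). Pmp22 passed no threshold in either comparison.

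The 12 listed targets of PERK and ATF4 did not move as one. With PA 6 were higher, against 25.8% of all tested genes, and 1 lower, against 25.2% (median 0.37). With the replicate block and without BSA replicate 2, 3 were lower in place of 1. With C3G 4 were higher than with PA, against 11.1%, and 2 lower, against 10.2% (median 0.09). Ddit3 (log2 fold changes of 1.33 and −0.70) and Vldlr (0.39 and −0.18) rose with PA and fell with C3G. Nupr1 had the opposite signs (−0.41 and 0.69), Chac1 (0.49), which degrades glutathione, Asns (0.28), the asparagine synthetase, and Sesn2 (0.31) rose with C3G from a level that PA had not changed past the threshold, and Trib3 (0.80) and Ddit4 (0.60) rose with PA and were at −0.03 and 0.08 with C3G. Atf4 itself rose by 0.48 with PA (adjusted p = 0.000815 by edgeR) and was at 0.04 with C3G (adjusted p = 0.804). Without PA replicate 2 or 3, or without PA + C3G replicate 1, the 2 lower targets became 1. Against BSA, 10 of the 12 were higher in the PA + C3G group and none lower (median 0.39). Of all tested genes, 19.0% were higher and 17.9% lower.

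The other kinases of eIF2α and its phosphatase are the list of 8 in which Ppp1r15a (GADD34), the phosphatase subunit made under stress, changed most. It was at 22.3 ± 0.866 FPKM with BSA, 72.6 ± 2.77 with PA and 40.6 ± 1.94 with PA + C3G (SD, n = 3), with log2 fold changes of 1.73 and −0.80. Eif2ak4 (GCN2), the kinase that senses amino acid lack, rose by 0.56 and fell by 0.29. The catalytic subunits Ppp1cb and Ppp1cc fell with PA by 0.19 and 0.34 and were higher with C3G by 0.14 and 0.15, calls that TPM scaling removes, as does leaving out any 1 PA library or PA + C3G replicate 3. Altogether 4 of the 8 were higher and 4 lower with PA, against 25.8% and 25.2% of all tested genes. With C3G 2 were higher and 2 lower, against 11.1% and 10.2%. The 4 higher with PA became 2 without any 1 BSA library or without PA replicate 2.

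Partners of eIF2α in the eIF2 complex and its exchange factor eIF2B were the last list, in which 2 of 7 tested subunits were higher and 2 lower with PA and 1 was lower with C3G, shares near the 25.8%, 25.2% and 10.2% of all tested genes, so the counts are no result about the list. Each count of 2 became 1 without any of several libraries, among them BSA replicate 3 and PA replicates 1 and 3. Eif2s3, the γ subunit, rose by 0.37 and fell by 0.38 on the log2 scale, so its level with PA + C3G was −0.02 from BSA (adjusted p = 0.807 by edgeR). Eif2s2, the β subunit, fell by 0.28 with PA, as Eif2s1 did, and was at 0.13 with C3G (adjusted p = 0.159 by edgeR). Of the 3 subunits of eIF2, 2 thus fell and 1 rose with PA.

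**Figure D4:**
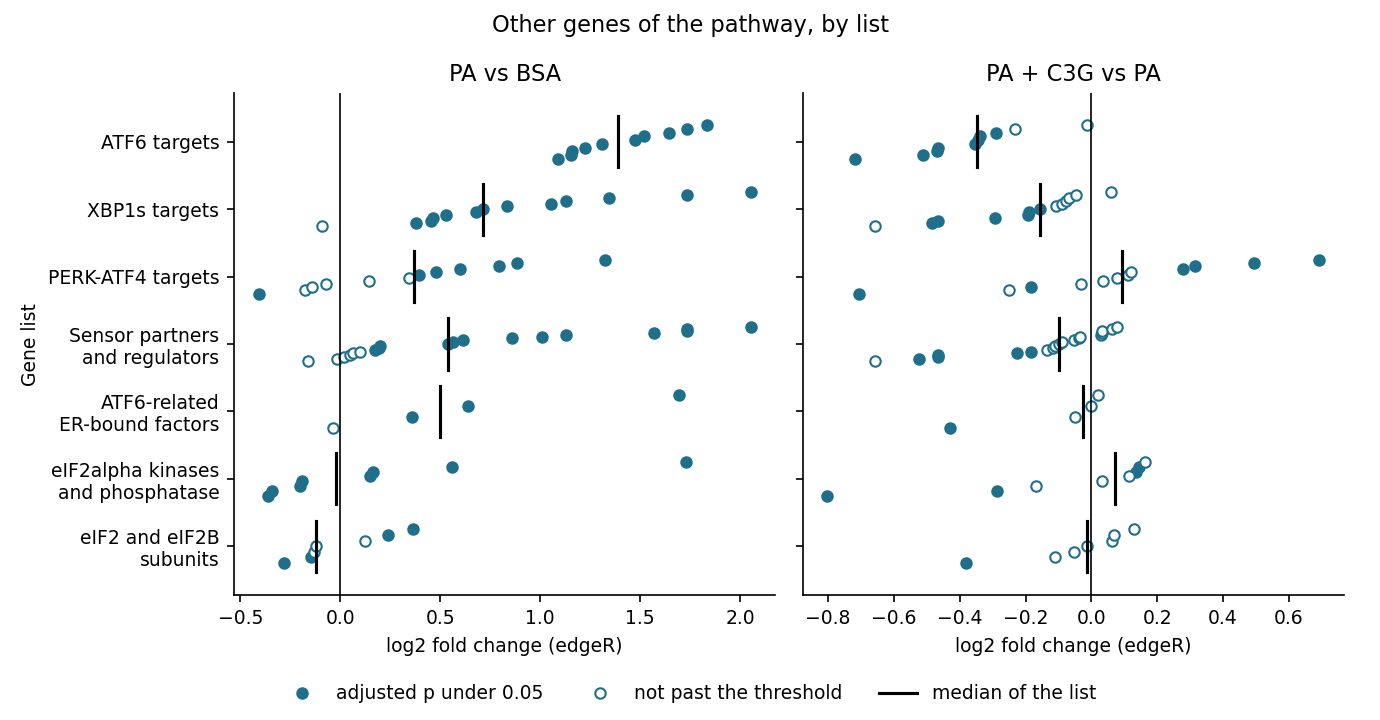
Log2 fold changes from edgeR of the tested genes of 7 pathway lists, in PA versus BSA (left) and PA + C3G versus PA (right), on separate horizontal scales. Filled points have an adjusted p under 0.05, open points do not, and black lines are list medians, which run for ATF6 targets from 1.39 on the left to −0.35 on the right and for PERK-ATF4 targets from 0.37 to 0.09.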

How the data were processed

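INS-1E cells of 3 groups (BSA, PA and PA + C3G, 3 libraries each) were profiled by strand-specific, paired-end sequencing of polyadenylated RNA. In the deposited table the estimated counts are raw, and the FPKM were scaled by the authors to gene length and mapped fragments. The submitters' processing notes name cutadapt 1.9, HISAT2 2.0.4, StringTie 1.3.4d, DESeq2 and edgeR without roles, and the genome build is not given in the sources used here. Columns were matched to samples by title. Testing covered genes averaging 1 FPKM or more and was done with edgeR 4.0.16 in R 4.3.3 (quasi-likelihood test, TMM, 9 libraries in the fit, Benjamini-Hochberg adjustment). Since counts are whole as deposited, none was rounded. Standard errors are the log2 fold change divided by the root of the F statistic. Alternatives used DESeq2 1.42.0, limma 3.58.1 on log2(FPKM + 1) and log2(FPKM + 0.1), other scalings and filters, counts divided by 4, a replicate block and each library left out. Ratios were tested with SciPy 1.17.1. Profiles used log2(CPM + 1). The test was checked on simulated data. Named genes are the 6 members, up to 4 per list and comparison with the smallest p past the threshold, and 3 nearest profiles per member. Others were named after their values were seen. Members and lists were chosen with earlier results of these data known. Promoters are from RefSeq, build GRCr8. The result of 1 gene of the partner list is not reported here.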

Additional observations from a re-analysis of the deposited data

How the results depend on the processing

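Under each of 19 alternatives all 6 genes were called in both comparisons with BSA, and in PA + C3G versus PA 4 or 5 were called, Xbp1 being the gene gained. Of 342 recomputed log2 fold changes of the 6 genes, 334 kept their direction and side of the threshold. The 4 that turned were those of Eif2s1 in PA + C3G versus PA, to −0.0567 under TPM scaling, −0.00379 and −0.00392 with limma at pseudocounts of 1 and 0.1, and −0.000558 without PA + C3G replicate 3, the values without 1 library running from −0.000558 to 0.0521. Of 63 recomputed ratios, that of Ern1 to Xbp1 between PA + C3G and BSA turned, to 0.0363 without BSA replicate 1, in a range of −0.178 to 0.0363 without 1 library. The cause was not tested. TPM scaling moved the median of all tested genes by −0.09 in PA + C3G versus PA and changed the balance over all genes from 1436 higher and 1316 lower to 774 higher and 2554 lower, and in PA + C3G versus BSA from 2462 and 2321 to 1872 and 3073 (1850 and 3091 with limma). Leaving out PA replicate 3 lowered the called genes of PA + C3G versus PA from 2752 to 1718. With the replicate block, 6843, 3118 and 5058 genes were called in PA versus BSA, PA + C3G versus PA and PA + C3G versus BSA. Without it the counts were 6614, 2752 and 4783. Deviations of same-numbered libraries had a Pearson's r between −0.07 and 0.15 over 9 pairs, above 0.1 in 2. In 6 of the 9 a library correlated best with its own number. The main test leaves such pairing out, and whether the numbers mark a batch was not tested. The mRNA level does not measure sensor activity, and 3 libraries a group limit the precision.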
